A study of Mus musculus with 12 samples.

Results

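The distal miRNA cluster of the Dlk1-Dio3 imprinted domain was examined in small RNA-seq libraries of mouse embryonic stem cells (ESCs). Its members were the rows of the deposited table on chromosome 12 within a 60 kb window around the cluster (build NCBIM37) whose symbol begins with Mir, with the clone-named miRNA AC121784.1. This gave 33 of 32101 features: 31 Mir-named miRNAs, AC121784.1 and Mirg, the noncoding host transcript of the distal end. Mir-named rows of the window were taken by position and name. AC121784.1 was the only clone-named row of the window taken, and it had the most reads of them, 223 in all. Its choice was made with earlier results of these data known.

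The libraries were labelled as ESCs of the E14 background and fell into 3 genotypes. These were wild type (WT, 6 libraries), a knockout of Dnmt1 (Dnmt1 KO, labelled Dnmt1 -/-, 2 libraries) and a combined knockout of Dicer and Dnmt1 (Dicer/Dnmt1 KO or double knockout, 4 libraries). Each title ended in A or B. A number before it, here called the culture, gave 3 cultures of WT and 2 of Dicer/Dnmt1 KO, and Dnmt1 KO, which had no number, was taken as 1. The labels do not say whether A and B were grown apart, and the design text of the series mentions technical replicates, so every p-value here measures only the spread between these libraries. According to the study's methods, Dnmt1 was flanked by loxP sites and deleted by an induced Cre, the Dnmt1 line was of another mouse strain than E14, and the Dicer/Dnmt1 line was made from it by genome editing. WT culture 2 was titled E14 2, without a genotype. For small RNA of both knockouts, the paper describes its WT control as uninduced cells in which loxP sites flank Dicer and Dnmt1. Beyond the E14 background, the sample labels name no line for WT, so a match to that control could not be checked. A difference of cell line between WT and the knockouts therefore cannot be told apart from the genotype with these labels.

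In this domain the protein-coding genes Dlk1, Rtl1 and Dio3 are normally transcribed from the paternal chromosome, and the noncoding RNAs Meg3, Rian and Mirg, with the miRNAs among them, from the maternal one. DNA methylation of an intergenic control region on the paternal chromosome keeps the noncoding RNAs silent there, and Dnmt1 is the enzyme that copies methylation onto the new strand when DNA is replicated. A miRNA is cut from a hairpin in its transcript, first by Drosha and then by Dicer, into a pair of short arms (5p and 3p). The seed, bases 2 to 8 of an arm, is the main determinant of which messages it pairs with.

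The 32 miRNAs spanned 34.771 kb, from 110947235 to 110982005. A total of 31 lay on the plus strand. AC121784.1 (chr12:110981368-110981447) lay on the minus strand, exactly across the hairpin of Mir409, whose sequence matched NCBIM37 at 110981368 to 110981446 on the plus strand. Counting ignored strand, so a read of either arm of miR-409 would have been counted for AC121784.1, and it could not be told apart from a read of the opposite strand. Of the 32 miRNAs, 23 lay upstream of Mirg (chr12:110973191-110987665, plus strand, annotated as a long intergenic noncoding RNA) and 9 lay inside it.

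The mature arms are shown for the 7 miRNAs that had enough reads to be tested, because these carried most of the reads, and for 2 arms of untested members that share a seed with one of them. Capitals mark the seed. The sequences are from RefSeq (GRCm38.p6 table), and each matched once within the window in NCBIM37. The rows were Mir411 (chr12:110948385-110948480), Mir300 (chr12:110962523-110962601), Mir381 (chr12:110965032-110965106), Mir134 (chr12:110972349-110972419), Mir541 (chr12:110980619-110980708), AC121784.1 with the arms of miR-409, and Mir410 (chr12:110981925-110982005). A row covers a whole hairpin, so its count does not say which arm was read. The listed miR-541-5p has 25 bases and reads were kept at 20 to 24, so a read of its full length would not have been counted.
miR-411-5p: uAGUAGACcguauagcguacg
miR-411-3p: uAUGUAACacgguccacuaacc
miR-379-3p: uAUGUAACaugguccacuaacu
miR-300-5p: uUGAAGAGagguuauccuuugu
miR-300-3p: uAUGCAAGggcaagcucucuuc
miR-381-5p: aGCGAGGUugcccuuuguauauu
miR-381-3p: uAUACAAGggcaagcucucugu
miR-134-5p: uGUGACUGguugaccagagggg
miR-134-3p: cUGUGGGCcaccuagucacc
miR-541-5p: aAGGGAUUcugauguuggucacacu
miR-541-3p: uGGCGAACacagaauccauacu
miR-409-5p: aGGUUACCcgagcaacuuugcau
miR-409-3p: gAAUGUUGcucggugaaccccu
miR-410-5p: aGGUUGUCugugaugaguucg
miR-410-3p: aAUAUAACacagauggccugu
miR-494-5p: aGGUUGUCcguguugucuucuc

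The 14 arms of the tested miRNAs held 14 different seeds, so the members with the most reads did not form a seed family. Over the whole cluster, 60 arms with a sequence held 55 seeds, and 5 seeds were held by more than 1 arm. Mir411 and Mir379, the first hairpins of the cluster, shared the seed of their 3p arms, and Mir410 shared that of its 5p arm with Mir494. Among the tested arms, miR-411-5p, miR-134-3p and miR-410-3p had a seed that occurred outside the cluster as well, in miR-7229-5p, in miR-3620-5p, and in miR-344d-3p and miR-344e-3p. The letters GGUUG stood in 11 of the 60 arms (18.3%), against 3.10% of 1679 mouse mature miRNAs in the same table, cluster arms included.

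In WT ESCs the cluster was almost silent, in Dnmt1 KO ESCs it was abundant, and in Dicer/Dnmt1 KO ESCs it lay between them. The level is given in RPM, the reads scaled to a common library size of 1e6 reads, summed over the 31 Mir-named miRNAs. The WT libraries, in the order 1A, 1B, 2A, 2B, 3A, 3B, had 7, 1, 1, 9, 2 and 1 cluster reads, which is 28.6, 6.90, 62.0, 64.2, 27.7 and 6.95 RPM. In Dnmt1 KO, 1098 reads were found in A and 1918 in B, or 16224 and 17824 RPM. The double knockout had 33 reads in 1A, 4 in 1B, 188 in 2A and 112 in 2B, or 1347, 459, 2964 and 743 RPM. The 3 groups did not overlap, and the lowest Dicer/Dnmt1 KO library stood above the highest WT library although it rests on 4 reads.

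The WT mean was 32.7 ± 25.4 RPM (SD, n = 6). Dnmt1 KO averaged 17024 ± 1132 RPM (SD, n = 2), and the double knockout averaged 1378 ± 1120 RPM (SD, n = 4). Pooled over libraries, Dnmt1 KO had 624.9 times the WT level (95% interval 408 to 1011, from 3016 against 21 reads), and Dicer/Dnmt1 KO had 49.5 times (31.9 to 81.0). Dicer/Dnmt1 KO kept 7.92% of the Dnmt1 KO level (7.06% to 8.87%). These values depend on the scaling. With the TMM factors used for the tests, the means were 51.0 RPM in WT, 22746 RPM in Dnmt1 KO and 917 RPM in the double knockout, so that the latter had 18.0 times the WT mean in place of 42.1 times, and 4.03% of the Dnmt1 KO mean in place of 8.10%. The intervals above are exact conditional ones and cover counting error only, and in bulk samples fewer cells with the RNA and less RNA per cell cannot be told apart. Depth was low, from 8710 to 245184 reads per library. One read was worth 4.08 RPM in WT 1A and 114.8 RPM in Dicer/Dnmt1 KO 1B, where a count of 0 allows up to 344 RPM.

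**Figure D1:**
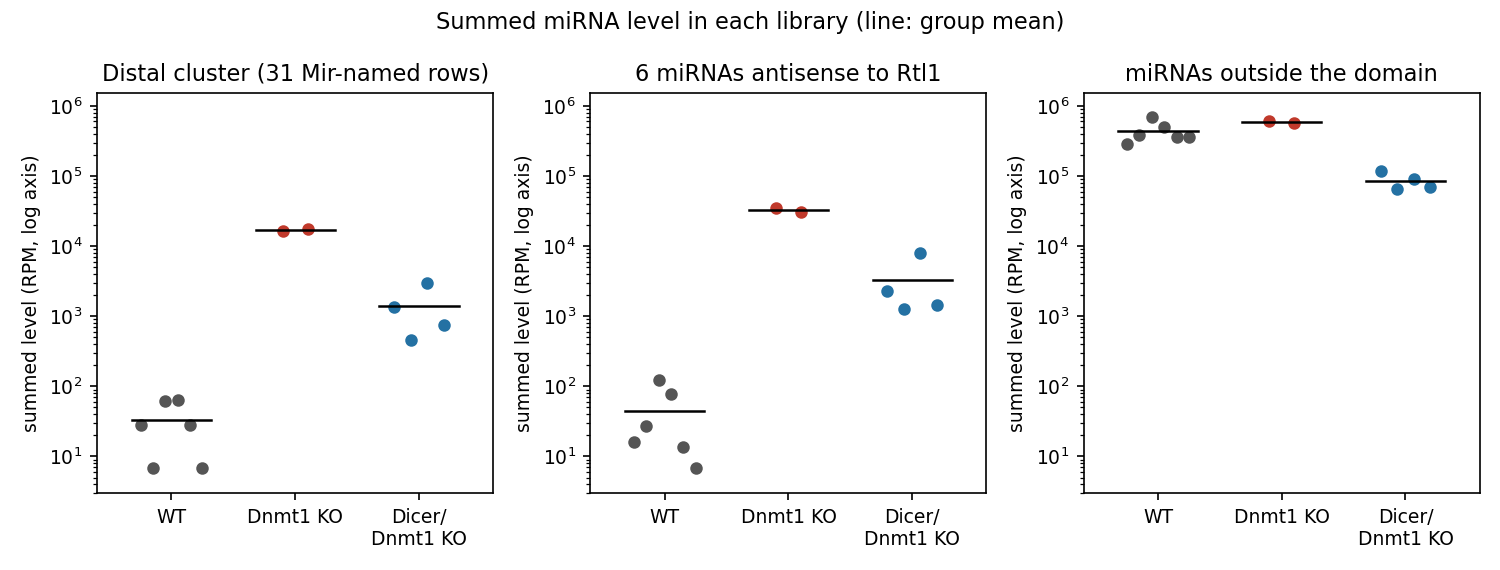
Summed level in RPM on a log axis for the 31 Mir-named miRNAs of the distal cluster, the 6 miRNAs antisense to Rtl1 and the miRNAs outside the domain; each point is a library and each line a group mean. The cluster lies at 6.90 to 64.2 RPM in WT, at 16224 and 17824 RPM in Dnmt1 KO and at 459 to 2964 RPM in the double knockout, while miRNAs outside the domain lie within 289954 to 694524 RPM in WT and 575390 to 601052 RPM in Dnmt1 KO.

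Every miRNA of the cluster was accounted for. In WT, 7 of the 32 miRNAs (AC121784.1 included) had a read, and none reached 10 reads over the 6 libraries. In Dnmt1 KO, 29 had a read, 14 had 10 or more and 5 had 100 or more. In Dicer/Dnmt1 KO, 20 had a read, 6 had 10 or more and none had 100. No library held a read of Mir654, Mir544 or Mir453. The reads were not spread evenly along the cluster. Mir411 and Mir379 start 1.15 kb apart, yet Mir411 had 1179 reads in Dnmt1 KO and Mir379 had 24. Mir541, AC121784.1 and Mir410 lay close together at the distal end, 33.384, 34.133 and 34.69 kb from the start of the cluster, and had 925, 208 and 429 reads, while Mir412 and Mir369, which lie between AC121784.1 and Mir410, had 1 and 6. Per 100 bases of row length, the mean level in Dnmt1 KO was 6820 RPM for Mir411, 5845 RPM for Mir541, 2979 RPM for Mir410, 1448 RPM for Mir381, 1441 RPM for AC121784.1, 552 RPM for Mir300 and 312 RPM for Mir134.

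**Figure D2:**
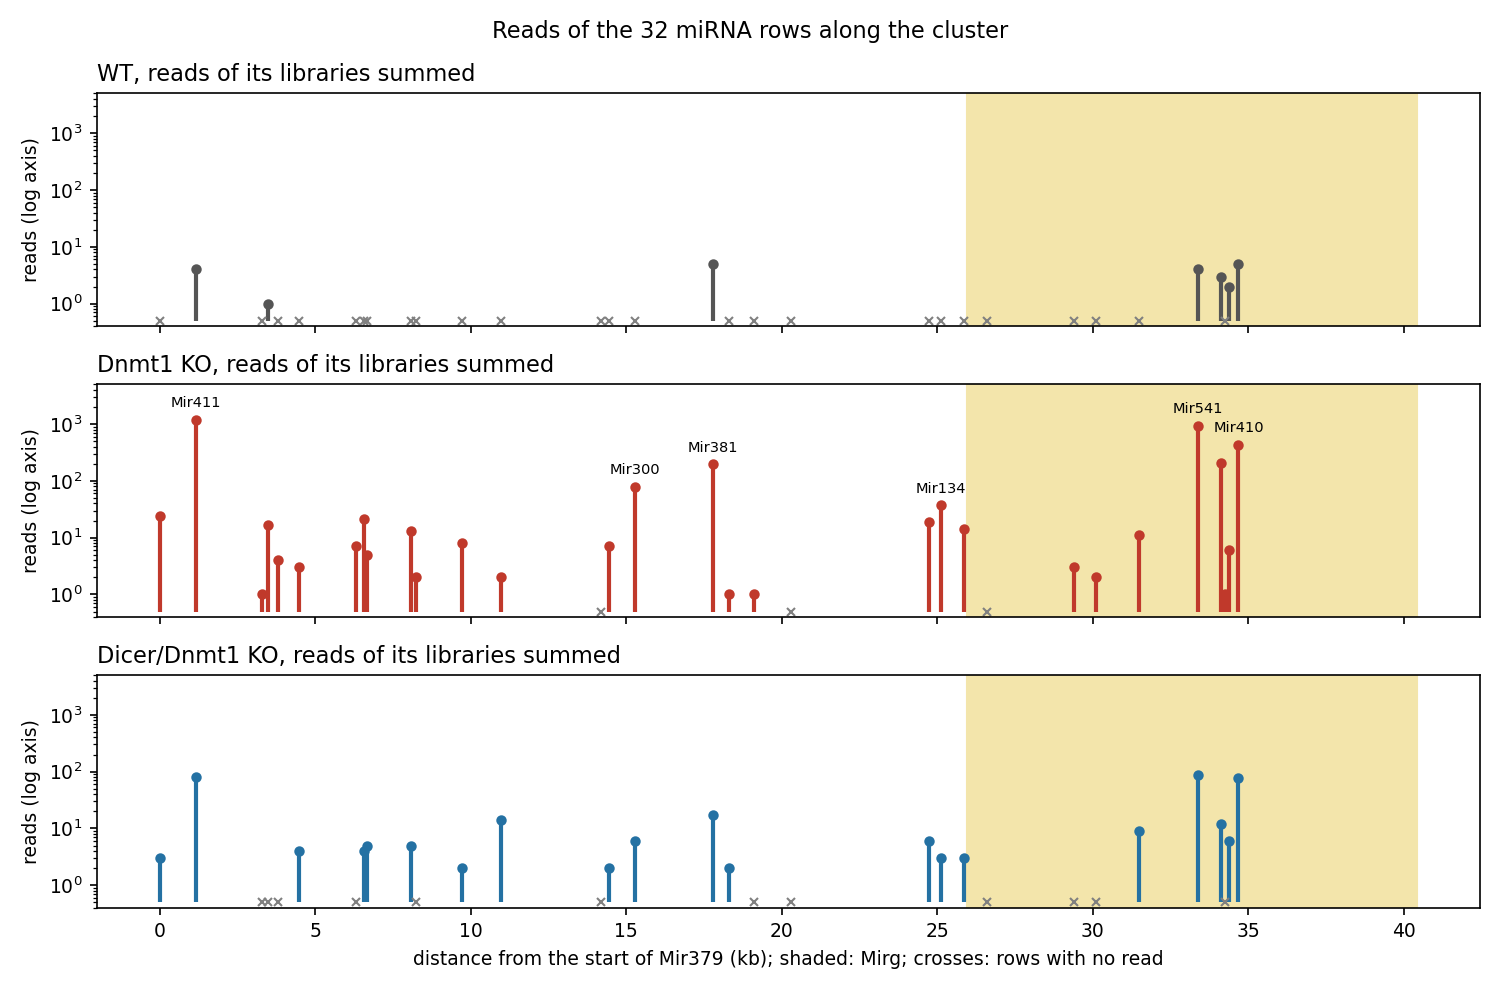
Reads of each of the 32 miRNA rows, summed over the libraries of a group, on a log axis against the distance of the row from the start of Mir379 in kb; crosses are rows with no read and the shaded part is Mirg. In Dnmt1 KO 29 rows have reads, with 1179 at Mir411 and 925 at Mir541, and in WT no row has more than 5.

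The host Mirg added no reads of its own. Its row held 14 reads in WT, 1585 in Dnmt1 KO and 193 in Dicer/Dnmt1 KO. In each of the 12 libraries this number equalled the sum of the 10 features inside its interval, so 0 reads were left outside them. Mirg values below are therefore the values of its miRNAs counted again, and the table carries no separate measurement of the host transcript. Rian, the host upstream, differed in this respect, with 507 reads against 429 in the features inside it.

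Features were tested with limma on log2(RPM + 10) where they reached 111 RPM (10 reads at the median depth) in 2 or more libraries and 15 reads in total. This left 683 features, 133 of them miRNAs, and 8 members: Mir411, Mir300, Mir381, Mir134, Mir541, AC121784.1, Mir410 and Mirg. No WT library reached the minimum for any of them, and 4 (Mir300, Mir381, Mir134 and AC121784.1) would not have been tested without the Dnmt1 KO libraries. A difference from WT was thus built into the 8 being tested. For these 4, a higher level in Dnmt1 KO than in Dicer/Dnmt1 KO was built in as well. Counts and medians over the tested members are a description, not support.

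Against WT, Dnmt1 KO was higher in 8 of the 8 tested members, beside 6.59% of all tested features and 21.1% of the tested miRNAs called higher. Mir411 was at 0 RPM in 4 WT libraries and at 4.08 and 21.4 RPM in WT 1A and 2B. In Dnmt1 KO A and B it was at 5763 and 7332 RPM. It rose by 9.35 ± 0.78 on the log2(RPM + 10) scale (SE; limma adjusted p = 1.37e-05), a pooled ratio of 1282 (500 to 4715). Both knockout libraries lay far above every WT library, and the width of the interval comes from 4 WT reads.

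Mir541 was at 8.16 and 14.3 RPM in WT 1A and 2B and at 0 in the other 4 WT libraries. It stood at 5186 and 5334 RPM in Dnmt1 KO A and B. The limma log2 fold change was 9.04 ± 1.13 (adjusted p = 0.000112). Mir541 and Mir411 together thus made up most of the cluster in Dnmt1 KO. Mir410, the last hairpin of the cluster, was at 8.16, 62.0 and 14.3 RPM in WT 1A, 2A and 2B and at 0 in the remaining WT libraries. In Dnmt1 KO A and B it was at 2261 and 2565 RPM, higher by 7.26 ± 1.00 on the log2 scale (limma adjusted p = 0.000240). The WT value of 62.0 RPM is a single read of a library of 16142 reads.

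Mir381 had a read in 4 of 6 WT libraries, at 4.08 to 14.3 RPM, and none in 2A and 3B. It was at 946 and 1227 RPM in Dnmt1 KO A and B, higher by 6.51 ± 0.78 (limma adjusted p = 8.77e-05). AC121784.1, the row across the miR-409 hairpin, was at 4.08 and 13.9 RPM in WT 1A and 3B and at 0 elsewhere in WT. It reached 1005 and 1301 RPM in Dnmt1 KO, higher by 6.98 ± 0.67 (limma adjusted p = 1.81e-05). In both cases the groups stood well apart.

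Mir300 and Mir134 had no read in any WT library. Mir300 was at 399 and 474 RPM in Dnmt1 KO A and B, at least 113-fold higher than the 3.93 RPM that 3 reads over all WT libraries are worth. Mir134, known in neurons for limiting the size of dendritic spines, was at 266 and 177 RPM, at least 53.7-fold higher. The fitted log2 changes were 5.89 ± 0.67 and 4.91 ± 0.62 (limma adjusted p = 5.87e-05 and 0.000113), which depend on the pseudocount and are no bounds. For Mirg the fitted change was 8.61 ± 0.90 (adjusted p = 3.28e-05).

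The median log2 change of the 7 tested cluster miRNAs was 6.98 (range 4.91 to 9.35), beside 1.26 for the other 126 tested miRNAs and 0.13 for all tested features. Taken as pooled read ratios, with Mir300 and Mir134 at their bounds, the median was 8.24. With the filter removed, 30 members had a read, and 18 of them were called higher, against 0.288% of 14232 features. The members called in addition were Mir379, Mir323, Mir494, Mir679, Mir666, Mir495, Mir376b, Mir382, Mir485 and Mir377, with log2 changes between 2.31 (Mir494) and 4.19 (Mir379).

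**Figure D3:**
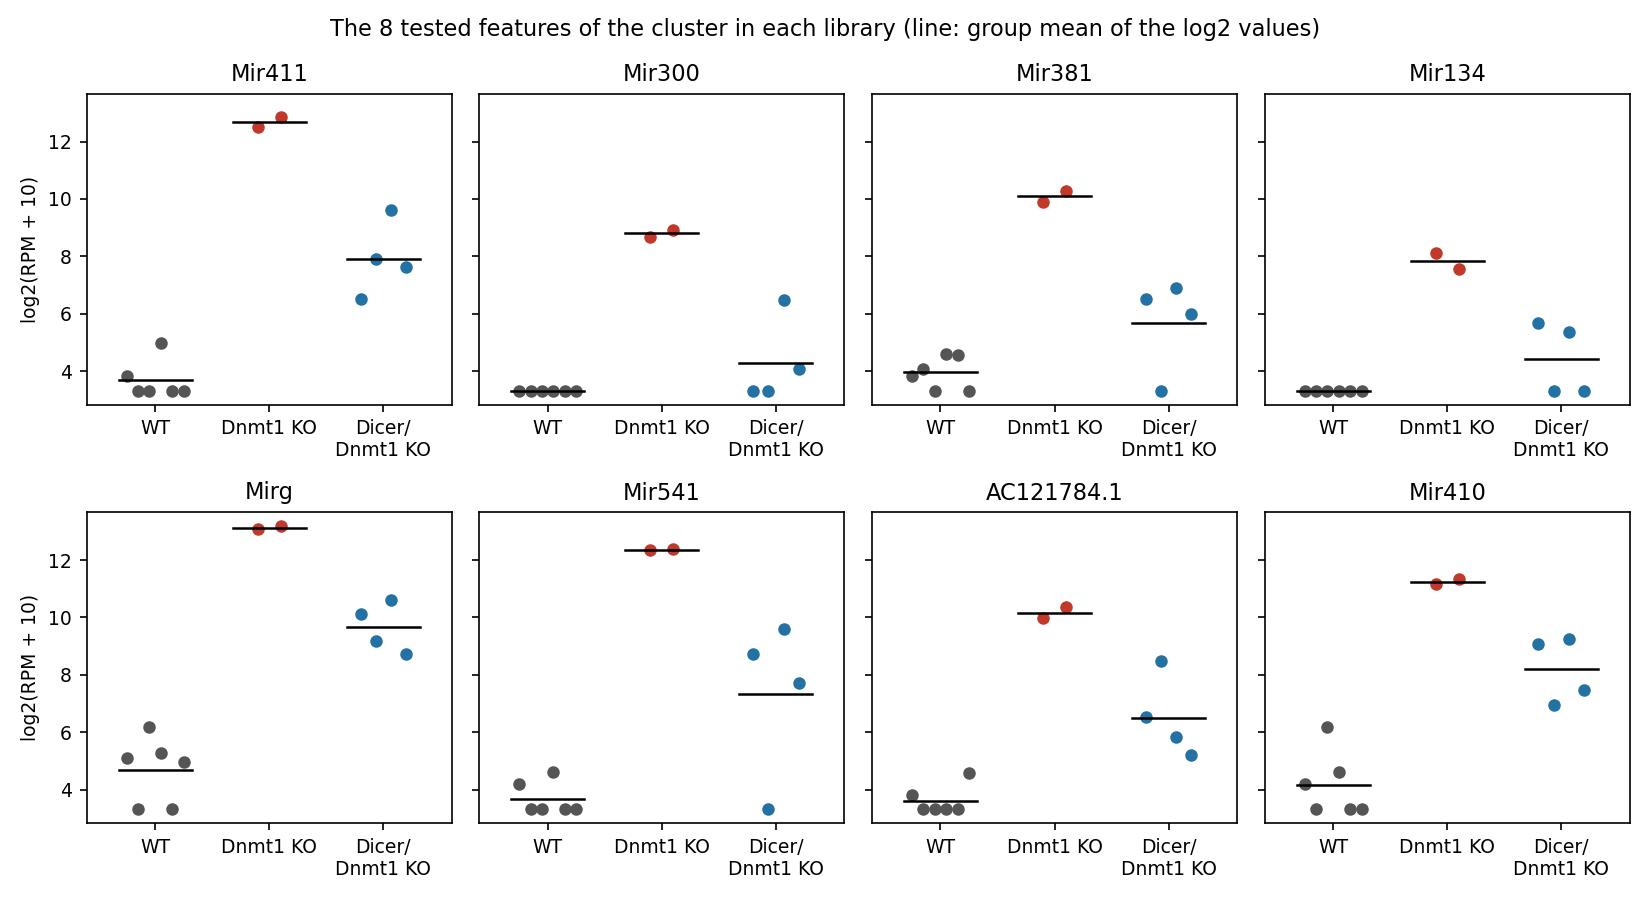
log2(RPM + 10) of the 8 tested members in each library, before scaling factors, with a line at the group mean; a value of 0 RPM lies at log2(10). Dnmt1 KO libraries lie above all WT and all Dicer/Dnmt1 KO libraries in each of the 8 panels. Dicer/Dnmt1 KO libraries of Mir300, Mir381, Mir134 and Mir541 reach down to 0 RPM. Mir300, Mir381, Mir134 and AC121784.1 were tested only through the Dnmt1 KO libraries, and Mirg repeats the reads of its miRNAs. The share of all tested features separated in this way was not computed.

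Against WT, Dicer/Dnmt1 KO was higher in 5 of the 8, beside 5.12% of all tested features and 12% of the tested miRNAs. This comparison uses the same WT libraries as the one above. Mir411 was at 81.7 RPM in double knockout 1A, 230 RPM in 1B, 773 RPM in 2A and 186 RPM in 2B, all above the highest WT library, and rose by 3.62 ± 0.62 on the log2 scale (limma adjusted p = 0.000430). Mir410 was at 531, 115, 599 and 166 RPM in the same order, also without overlap, and rose by 3.22 ± 0.79 (limma adjusted p = 0.00709). The 115 RPM of Mir410 in 1B is 1 read of 8710, and the highest WT value, 62.0 RPM in 2A, is 1 read of 16142. These libraries are thus parted by depth only. For Mir411 the 81.7 RPM in 1A is 2 reads, and 0 reads in WT 2A allow up to 186 RPM. Mir541 was at 408, 0, 757 and 199 RPM. Its fitted change was 3.25 ± 0.89 (limma adjusted p = 0.0144), and 0 reads in library 1B overlapped WT.

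AC121784.1 was at 81.7, 344, 47.3 and 26.5 RPM, of which the value in 1B is 3 reads. It rose by 2.37 ± 0.53 (limma adjusted p = 0.00379), and its highest WT value of 13.9 RPM lay below all 4 libraries. In WT 2A, however, its 0 reads allow up to 186 RPM. Mirg followed its miRNAs with 4.14 ± 0.72 (limma adjusted p = 0.000458). The other 3 did not pass the test. Mir381 was at 81.7, 0, 110 and 53.1 RPM (log2 change 1.38 ± 0.62, limma adjusted p = 0.135), Mir300 at 0, 0, 78.8 and 6.64 RPM (0.83 ± 0.53, adjusted p = 0.325) and Mir134 at 40.8, 0, 31.5 and 0 RPM (0.84 ± 0.49, adjusted p = 0.268). These rest on 17, 6 and 3 reads over the 4 libraries. In pooled reads Mir381 was at 10.5 times the WT level (3.71 to 36.3, counting error only), and it was called with voom (adjusted p = 0.0138) and without library 1B (adjusted p = 0.00555).

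The median over the 7 tested miRNAs was 2.37, whereas the other 126 tested miRNAs had a median of -3.08 against WT. Without the filter, 4 members were called (Mir411, Mir541, Mir410 and Mirg), beside 0.155% of features. The call of Mir541 was lost with a correlation estimated within cultures (adjusted p = 0.0531), without library 2A or 2B (adjusted p = 0.0560 and 0.0511), and with a pseudocount of 1 (adjusted p = 0.0578). It was also lost with the culture number as a replicate block (adjusted p = 0.0663). AC121784.1 was not called without the filter (adjusted p = 0.225) or with A and B summed (adjusted p = 0.0503). With WT culture 2 as the only control, Mir541 and Mir410 were not called (adjusted p = 0.137 and 0.181).

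Against Dnmt1 KO, Dicer/Dnmt1 KO was lower in 8 of the 8 tested members. The background here is high, with 21.7% of all tested features and 74.4% of the tested miRNAs called lower, so the count sets the cluster little apart from other miRNAs. Fitted changes ran from -5.80 ± 1.19 for Mir541 (limma adjusted p = 0.00190) to -4.03 ± 1.06 for Mir410 (limma adjusted p = 0.0109). Mir411 fell by 5.73 ± 0.83 and Mir381 by 5.13 ± 0.83 on the log2 scale (limma adjusted p = 0.000129 and 0.000287). Mir300 changed by -5.05, AC121784.1 by -4.61, Mirg by -4.47 and Mir134 by -4.07, each past the threshold. The median of the 7 miRNAs was -5.05, beside -4.09 for the other 126 tested miRNAs. Mir300, Mir381, Mir134 and AC121784.1 were tested only through the Dnmt1 KO libraries, so a fall from Dnmt1 KO was built into their selection. The count and the median are no support. Without the filter 12 members were called lower, beside 0.935% of features. With a pseudocount of 1 the calls of Mirg, Mir541 and Mir410 were lost (adjusted p = 0.109, 0.0537 and 0.194), and that of Mir410 was lost without Dnmt1 KO A (adjusted p = 0.0784) and without the filter (adjusted p = 0.0545).

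**Figure D4:**
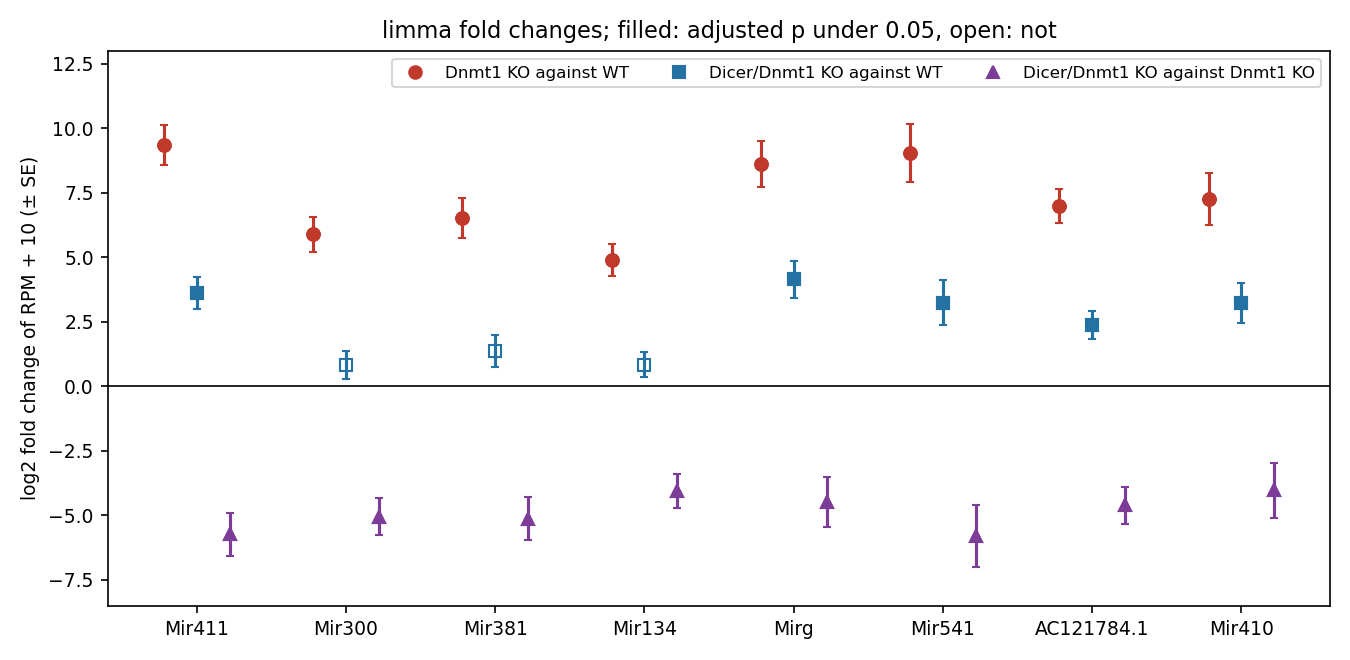
limma log2 fold changes of RPM + 10 (± SE) for the 8 tested members in the 3 comparisons; filled symbols passed an adjusted p of 0.05. The Dnmt1 KO changes against WT run from 4.91 to 9.35, those of Dicer/Dnmt1 KO against WT from 0.83 to 4.14, and those between the knockouts from -5.80 to -4.03.

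The parts of their Dnmt1 KO level that the members kept differed in pooled reads. The intervals given cover counting error only, while A and B of a culture differed by more than sampling noise. In pooled reads without scaling factors Mir410 kept 12.7% (9.85% to 16.2%), and Mir411 kept 4.87% (3.84% to 6.10%). AC121784.1 kept 4.09% (2.08% to 7.30%) and Mir541 6.74% (5.36% to 8.40%). By mean RPM, where the 3 reads of 1B weigh more, AC121784.1 was at 125 RPM against 1153 RPM in Dnmt1 KO. The counting interval of Mir410 lay above those of Mir411, Mir541 and AC121784.1. Within libraries, Mir410 had 0.392 and 0.350 reads for each read of Mir411 in Dnmt1 KO A and B, and 6.5, 0.5, 0.776 and 0.893 in the 4 double knockout libraries, in the order 1A, 1B, 2A, 2B. The ratio was higher in all 4 Dicer/Dnmt1 KO libraries, but with 2 against 4 libraries the exact permutation test (two-sided p = 0.133) cannot give a smaller value for groups that do not overlap. The pair was chosen after its values were seen, and the ratios of 1A and 1B rest on 15 and 3 reads.

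As shares of the cluster reads, Mir411 made up 35.5% (Wilson 95% interval 32.7% to 38.4%) and 41.1% (39.0% to 43.4%) in Dnmt1 KO A and B, and 26.1% (20.3% to 32.8%) and 25% (17.9% to 33.8%) in Dicer/Dnmt1 KO 2A and 2B. In 1A and 1B, with 33 and 4 cluster reads, Mir411 made up 6.06% (1.68% to 19.6%) and 50% (15% to 85.0%), so its share in 1B lay above both Dnmt1 KO libraries. Mir410 made up 13.9% (12% to 16.1%) and 14.4% (12.9% to 16.0%) in Dnmt1 KO, against 20.2% (15.1% to 26.5%) and 22.3% (15.6% to 30.9%) in 2A and 2B and 39.4% (24.7% to 56.3%) and 25% (4.56% to 69.9%) in 1A and 1B. Mir541 made up 32% and 29.9% in Dnmt1 KO, and 30.3%, 0%, 25.5% and 26.8% in double knockout 1A, 1B, 2A and 2B. Mir411, Mir541, Mir410 and Mir381 together held 87.2% and 92.3% of the reads in Dnmt1 KO, against 75% to 81.8% in the double knockout. The hairpins inside Mirg gave 47.2% and 44.8% of the cluster reads in Dnmt1 KO. In the double knockout they gave 72.7%, 50%, 50.5% and 52.7%, of which the value in 1B comes from 4 reads.

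**Figure D5:**
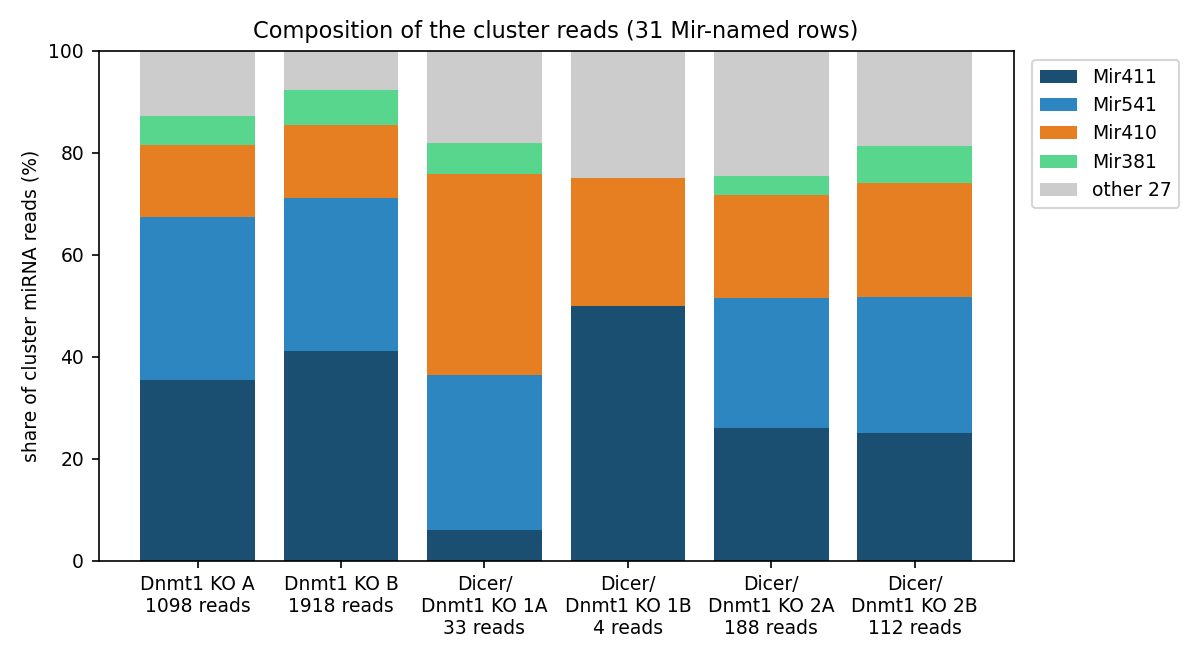
Share of cluster miRNA reads (31 Mir-named rows, percent) in each knockout library, with the number of reads under each bar. Mir410 (orange) takes 13.9% and 14.4% in Dnmt1 KO and 20.2% to 39.4% in the 4 double knockout libraries, the last of which rests on 13 reads.

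Of the 25 untested miRNAs, 11 had 10 or more reads in all. Mir379 had 16 and 8 reads in Dnmt1 KO A and B, and 3 reads in Dicer/Dnmt1 KO, all in 2A. Mir679 had 13 and 8 in Dnmt1 KO and 4 in Dicer/Dnmt1 KO, Mir382 had 9 and 10 against 6, and Mir666 had 10 and 3 against 5. Mir323 had 9 and 8 reads in Dnmt1 KO, none in Dicer/Dnmt1 KO and 1 in WT. Most of these thus followed the abundant members, with no or single reads in WT, the most in Dnmt1 KO and few in Dicer/Dnmt1 KO.

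Mir485 had 14 reads in Dnmt1 KO and 3 in Dicer/Dnmt1 KO, and Mir495 had 8 and 2. Mir667 did not keep this order. It had 0 and 2 reads in Dnmt1 KO A and B but 9 and 5 in Dicer/Dnmt1 KO 2A and 2B, or 11.4 and 56.6 RPM in pooled reads. Mir377, Mir369 and Mir1193 kept it by a small margin, with pooled levels of 62.8, 34.2 and 28.5 RPM in Dnmt1 KO and 36.4, 24.3 and 20.2 RPM in the double knockout. Without the filter none of these 4 was called between the knockouts. Mir382, Mir666 and Mir495 were not called either (limma adjusted p = 0.0575, 0.116 and 0.184). Mir379, Mir679, Mir323 and Mir485 were called lower in Dicer/Dnmt1 KO. The other 14 untested miRNAs had at most 9 reads in all, and 3 of them none.

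Elsewhere in the domain, the 6 miRNAs antisense to Rtl1 (Mir431, Mir433, Mir127, Mir434, Mir432 and Mir136) summed to 6.95 to 124 RPM in WT and to 34576 and 30240 RPM in Dnmt1 KO. In the double knockout they summed to 1263 to 8025 RPM. For each 100 of their reads the cluster had 46.9 and 58.9 reads in Dnmt1 KO, against 57.9, 36.4, 36.9 and 51.9 in the double knockout, so the ranges overlapped. Of 11 tested features of the domain outside the cluster, 11 were called higher in Dnmt1 KO than in WT. In Dicer/Dnmt1 KO 8 were called higher than in WT, and 6 were called lower than in Dnmt1 KO. The shares over all tested features were 6.59%, 5.12% and 21.7%. These 11 are not separate measurements. The Rtl1 row had 2340 and 3254 reads in Dnmt1 KO, as many as the 6 miRNAs antisense to it. The Rian row spans Mir341 and the tested SNORD113 rows. Those of the 11 not called between the knockouts were Mir431, Mir434, Rian and a pair of SNORD113 small nucleolar RNAs. The last 3 had higher unscaled means in the double knockout than in Dnmt1 KO, with 1281 against 980 RPM for Rian and 342 against 195 RPM and 160 against 47.3 RPM for the SNORD113 rows, while their fitted log2 changes were -0.68 ± 0.65 for Rian and -0.90 ± 1.18 and 0.71 ± 0.56 for the SNORD113 rows.

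miRNAs at large were also low in the double knockout. Those outside the domain summed to 289954 to 694524 RPM in WT and to 575390 and 601052 RPM in Dnmt1 KO, against 64638 to 116206 RPM in the double knockout. For each 100 of these reads the cluster had 0.00179 to 0.0127 reads in WT, 2.70 and 3.10 in Dnmt1 KO, and 1.16, 0.710, 3.26 and 1.08 in the double knockout. Library 2A lay above both Dnmt1 KO libraries on this scale and the other 3 below them. The rows of the deleted genes say little here, because small RNA reads do not measure their messages: Dicer1 had 0 to 3 reads in each library and Dnmt1 0 to 18.

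Dicer/Dnmt1 KO 2A stood apart from 2B, the library of the same culture. Its cluster level was 3.99 times that of 2B (3.14 to 5.09), its level of the miRNAs antisense to Rtl1 5.60 times (4.77 to 6.596), and that of miRNAs outside the domain 1.32 times (1.28 to 1.36). Without 2A the mean of the group fell from 1378 to 850 RPM, by over 1.5 times. The fibroblast or feeder list also differed within culture 2, with 40802 RPM in 2A and 12541 RPM in 2B.

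The group means of that list had the order of the cluster, but its WT and double knockout ranges overlapped. Its part in the result was not tested. It has 13 miRNAs known from fibroblasts, of which 12 were in the table. Their sum was 9862 to 15492 RPM in WT and 41313 and 49207 RPM in Dnmt1 KO, with 12541 to 40802 RPM in the double knockout. Of 5 tested, 3 rose in Dnmt1 KO against WT (Mir21, Mir22 and Mir143). Only Mir143 was called higher in Dicer/Dnmt1 KO against WT, where the median log2 change of the 5 was -0.34. The defining markers Mir143, Mir145, Mir199a-1, Mir199a-2 and Mir214 summed to 333 to 1115 RPM in WT and to 5364 and 7053 RPM in Dnmt1 KO, with 4419 to 15056 RPM in the double knockout. Nearly all of these reads were of Mir143. Unscaled, Mir143 averaged 585 RPM in WT, 6140 RPM in Dnmt1 KO and 8481 RPM in the double knockout, not the order of the cluster. Its fitted log2 change between the knockouts was -0.68 ± 0.74 and was not called. Mir145 and Mir214 had 0 to 5 and 0 to 6 reads per library, Mir199a-2 had 1 read in all and Mir199a-1 none. The study's methods allow culture with feeder cells, and the labels do not say which libraries had them.

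The labelled cell type was set beside miRNAs of ESCs. All cell type lists hold miRNAs, and 74.4% of tested miRNAs were called lower in the double than in the single knockout. For the double knockout these lists therefore cannot check the cell type. The Mir290 to Mir295 and Mir302 to Mir367 list of 12 summed to 28683 to 93275 RPM in WT and to 99648 and 55926 RPM in Dnmt1 KO A and B, but to 1221 to 3797 RPM in the double knockout. Of 10 tested none was called between Dnmt1 KO and WT, while 9 fell from Dnmt1 KO to the double knockout. The 10 log2 changes in Dnmt1 KO against WT went both ways, from -2.18 for Mir302a to 1.54 for Mir290, with a median of -0.06. Mir302b and Mir302d were also lower, at -1.78 and -1.56. Neural markers (5 of 10 in the table) were at 62.0 to 188 RPM in WT, at 133 and 74.3 RPM in Dnmt1 KO A and B and without a read in the double knockout. Muscle markers had no read. Blood markers lay at 333 to 663 RPM in WT, at 473 and 530 RPM in Dnmt1 KO and at 0 to 81.7 RPM in the double knockout. None of the miRNA processing genes on the list had enough reads to be tested, and of 2 tested methylation or imprint maintenance genes none was called in any comparison.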

How the data were processed

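Small RNA of 12 ESC libraries was sequenced. The authors kept trimmed reads of 20 to 24 nt, mapped them to NCBIM37 and counted overlaps in SeqMonk, according to the methods. The submitters' processing notes name Trim Galore 0.3.5 and Bowtie2 2.2.6. The deposited values were log2 RPM, with 0 reads written as 0.9 read. Whole reads were recovered from them (100% of values within 0.02 of a whole number), and with them the library sizes. How multiply mapping reads were placed is not given in the sources used here. Another 89 value columns matched no label and were left out.

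Libraries were scaled with TMM factors (trims of 30% on ratios and 5% on abundance), and log2(RPM + 10) was tested with limma 3.58.1 (R 4.3.3, mean-variance trend, 1 model over 3 genotypes, no covariate, Benjamini-Hochberg adjustment over all tested features at 0.05). This scale understates changes of rows with few reads. The unscaled RPM are those printed per library. The test was tried on simulated data. Gene types came from GENCODE, built on NCBIM37, which matched all 32101 features, and sequences from RefSeq were matched to NCBIM37. All 32 member miRNAs had a sequence. A and B of each culture differed by more than sampling noise and were kept as separate libraries.

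Tested members were named with their values, untested ones by counts and, with 10 or more reads, by name; outside genes came from fixed lists. The members, lists and tests were chosen with earlier results of these data known. Alternatives covered scaling, pseudocount, filter, voom, A and B, the WT cultures and each library left out; the sum with AC121784.1 was added after seeing the data.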

Additional observations from a re-analysis of the deposited data

Results flagged for a closer look

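A total of 26 sets of values were screened for a library far from the rest of its group (Dixon's criterion at 95%, groups of 4 or 6), and 6 stood out. Chance gives about 1 in 20 for normally distributed values only. Several flagged sets hold few reads, so the number flagged cannot be set against that rate. In WT the flagged sets were Mir411 at 21.4 RPM in 2B (3 reads), AC121784.1 at 13.9 RPM in 3B (2 reads) and Mir410 at 62.0 RPM in 2A (1 read), each against libraries with 0 to 2 reads. In Dicer/Dnmt1 KO, Mir300 was at 78.8 RPM in 2A (5 reads) and at 6.64 RPM or less in the others. The share of cluster reads inside Mirg was 72.7% in 1A, from 33 reads, and 50.0% to 52.7% in the other 3. The miRNAs antisense to Rtl1 summed to 8025 RPM in 2A and to 2327 RPM or less in the others.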

How the results depend on the processing

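Under every alternative run, the direction of the 24 member fold changes was kept. In Dnmt1 KO against WT all 193 alternative values of tested members stayed past the threshold, where the member was tested. In Dicer/Dnmt1 KO against WT 9 calls were lost and 2 gained (Mir381 with voom, adjusted p = 0.0138, and without library 1B, adjusted p = 0.00555), and between the knockouts 5 were lost. The calls of AC121784.1 in Dicer/Dnmt1 KO against WT were lost without the filter (adjusted p = 0.225) and with A and B summed (adjusted p = 0.0503).

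Leaving out a WT or Dicer/Dnmt1 KO library kept 8 calls for Dnmt1 KO against WT, beside 31 to 79 higher calls over all tested features. Between the knockouts it also kept 8, beside 139 to 155 lower calls. Either Dnmt1 KO library left out gave 5 tested members, and the lone one left is then assumed to vary like the other groups. Without the filter 18 were called for Dnmt1 KO against WT and 12 between the knockouts, beside 41 higher and 133 lower calls over 14232 features. Leaving out each library gave 4 to 6 calls for Dicer/Dnmt1 KO against WT, beside 28 to 44 higher calls over all tested features. Between the knockouts a pseudocount of 1 gave 5, beside 133 lower calls over 683 features. For Dicer/Dnmt1 KO against WT, culture 2 alone as WT gave 3 of 8 tested, beside 53 higher calls over 626 features.

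Medians over the tested miRNAs depended on the pseudocount and the filter. A pseudocount of 1 gave 9.19 (Dnmt1 KO against WT) and 4.67 (Dicer/Dnmt1 KO against WT), and one of 50 gave 4.91, 1.04 and, between the knockouts, -3.87. Without the filter, over 29 miRNAs, the medians were 2.68, 0.82 and -2.06. Leaving out each library gave medians of 6.85 to 8.33, 2.01 to 3.24 and -5.39 to -4.58, and mean sums of 26.4 to 37.9 RPM in WT, 16224 to 17824 RPM in Dnmt1 KO and 850 to 1685 RPM in Dicer/Dnmt1 KO. The sum in Dnmt1 KO was 22746 RPM with TMM factors (51.0 RPM in WT and 917 RPM in Dicer/Dnmt1 KO) and 18177 RPM with AC121784.1 added, an alternative chosen after seeing the data.

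Scaling moved the median of all features. Without factors it shifted by -0.20 in Dnmt1 KO against WT, by 0.70 in Dicer/Dnmt1 KO against WT, with 84 higher and 116 lower calls in place of 35 and 130, and by 0.91 between the knockouts, with 24 and 127 in place of 8 and 148. With snoRNA and snRNA factors the shifts were 0.38, -0.12 and -0.50, and with the other 2 scalings at most 0.16. Member calls were the same under all 4 scalings.

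With the culture number as a replicate block, in WT and Dicer/Dnmt1 KO libraries only, 4 members were tested and 3 called (median 3.11 over 3 miRNAs). Without the block 4 were called, with a median of 3.42 over 3 miRNAs. Over 655 features, 25 were called higher with the block and 32 without it. Mir541 had an adjusted p = 0.0663 with the block. Deviations of equally numbered libraries correlated at -0.28 and -0.40 for cultures 1 and 2, and single libraries at -0.285 (2B) to 0.11 (1B). With 2 double knockout cultures these values are not independent. They cannot settle whether the numbers pair the libraries. Mirg without the features inside it could not be tested, since 0 reads remained. A count of 3 reads is worth 12.2 to 344 RPM in a library.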

Other observations

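The window held 4 further clone-named rows that were no members. AC121784.4, across the hairpin of Mir299a on the opposite strand, had 5 and 16 reads in Dnmt1 KO A and B, 1 in WT 2B and 3 in Dicer/Dnmt1 KO. AC121784.3, across Mir380, had 2 and 4 reads in Dnmt1 KO and none elsewhere. AC121784.2, across Mir376a, had 1 read in Dnmt1 KO B and 1 in Dicer/Dnmt1 KO 2A. AC121784.5 had 1 read in Dicer/Dnmt1 KO 1A. Mir376c and Mir668, whose hairpins also matched the window, had no row of their own.

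Among 650 tested features outside chromosome 12, the miRNAs ranked most like the summed cluster over the 12 libraries were Mir181a-2 (Spearman rho 0.85), Mir29a (0.85), Mir143 (0.83) and Mir881 (0.80). The values share the depth of each library. Mir881, on chromosome X, had no read in WT, 13 and 21 in Dnmt1 KO and 2 each in Dicer/Dnmt1 KO 2A and 2B.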
